A study of Mus musculus with 17 samples.

Results

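Interferons are secreted proteins that put cells on alert against viruses and other microbes, and the genes whose transcription they switch on are called interferon-stimulated genes. A list of 40 such genes was examined in 17 primary neuroblastomas of TH-MYCN mice, each on its own Affymetrix whole-genome expression array. A gene was taken as measured where at least 1 probe set was annotated to its symbol alone, and the probe set of highest mean gave its value. This held for 37 of the 40, among 18193 genes with such a probe set. Gbp4 was found only on a probe set shared with Gbp8 and Tgtp1 only on one shared with Tgtp2, and Ifi44 was not analysed here. By role the measured members were 5 sensors of foreign RNA or DNA, 5 transcription factors, 20 antiviral effectors and 7 interferon gamma GTPases. The sensors and effectors together are called the 25 type I antiviral genes below.

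TH-MYCN mice carry human MYCN behind the rat tyrosine hydroxylase promoter, which directs the oncogene to cells of the sympathetic lineage. The mice were hemizygous for the transgene and kept on a single inbred strain background. All 17 tumors form 1 group with no treatment and no control tissue, and the labels give neither the age nor the sex of single animals. Tumors are named here as in the labels (mad548 to mad565). Because each tumor has 1 array, the spread given below holds both differences between tumors and array error, and every comparison is between tumors.

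Type I interferons bind a receptor present on almost all cells and signal through JAK kinases to a complex of STAT proteins with Irf9. This complex binds the interferon-stimulated response element (ISRE) in front of antiviral genes. Interferon gamma comes mainly from T and NK cells, uses another receptor and sends a STAT dimer to the gamma-activated site (GAS), which switches on Irf1 and a large family of GTPases that attack the vacuoles of intracellular parasites. Many genes answer to both, and a bulk tumor sample holds macrophages, vessels and other host cells beside the tumor cells.

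Values are log2 expression values and ran from 3.28 to 15.59 over all probe sets, with array medians from 6.28 to 6.51. The tissue label was checked against 6 measured sympathoadrenal genes, all of which lay above the median of all single-gene probe sets (6.75), with Chgb, a protein of neurosecretory granules, between 14.10 and 14.75. Some tumors stood apart in RNA of other tissues. The mean of 6 liver genes, each gene set against its own median over tumors, reached 4.54 in mad562. It was 1.94 in mad559 and did not exceed 0.15 in any of the others. Skeletal muscle genes stood at 7.10, 5.37 and 4.92 in mad553, mad550 and mad549, against at most 0.63 elsewhere. The difference between the 3′ and 5′ probe sets of Gapdh, a sign of RNA integrity, was between 2.32 and 2.77 in every tumor.

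Promoters of the members were examined for the elements through which interferons act. RefSeq promoters (GRCm38.p6, 250 bases before to 50 after each start) were at hand for 29 of the 40 members. They were searched on both strands for an ISRE core, GAAANNGAA, and a GAS, TTCNNNGAA. An ISRE core was present in 17 of 29 members (58.6%), against 9.76% of 27025 genes. A GAS was present in 10 of 29 (34.5%), against 9.55% of all genes. Among the 7 GTPases with a promoter (Tgtp1 included, Iigp1 and Gbp4 not matched), 6 held an ISRE core and 3 a GAS. A match describes the letters of the window and not a site in use.

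The stretches below are those of measured GTPases that held an element and passed the test on other interferon targets given further down. Ifi47 and Iigp1 passed it too, but Ifi47 held neither element and Iigp1 had no promoter at hand. Capitals mark the elements, and each line reads 5′ to 3′ on the strand of the gene. In Igtp and Irgm2, neighbours on chromosome 11, a GAS is followed by an ISRE core whose first base lies 11 bases further on. Tgtp1, not measured alone, has the same spacing. In Irgm1 and Gbp3 a pair of overlapping ISRE cores shares bases, and Gbp2 has a single core. The stretches lie at chr11:58199486-58199555 on the plus strand, chr11:58214877-58214946 on the plus strand, chr11:48871421-48871475 on the minus strand, chr3:142620580-142620638 on the plus strand, and chr3:142559975-142560039 on the plus strand.
Igtp: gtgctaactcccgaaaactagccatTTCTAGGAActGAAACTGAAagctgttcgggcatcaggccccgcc
Irgm2: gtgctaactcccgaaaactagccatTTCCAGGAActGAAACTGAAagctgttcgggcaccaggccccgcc
Irgm1: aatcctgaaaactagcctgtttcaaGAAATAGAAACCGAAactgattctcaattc
Gbp2: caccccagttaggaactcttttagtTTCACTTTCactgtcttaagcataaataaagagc
Gbp3: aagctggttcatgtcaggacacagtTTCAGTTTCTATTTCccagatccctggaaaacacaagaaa

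Of the antiviral effectors, Ifit1 and Ifit3 held 3 ISRE cores each and Oas1a held a pair of overlapping cores close to its start, with a GAS further upstream. These are shown because all 3 genes passed the test on other interferon targets given further down. They lie at chr19:34640755-34640838 on the plus strand, chr19:34583349-34583460 on the plus strand, and chr5:120907526-120907648 on the minus strand.
Ifit1: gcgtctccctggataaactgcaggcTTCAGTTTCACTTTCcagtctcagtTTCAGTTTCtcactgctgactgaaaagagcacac
Ifit3: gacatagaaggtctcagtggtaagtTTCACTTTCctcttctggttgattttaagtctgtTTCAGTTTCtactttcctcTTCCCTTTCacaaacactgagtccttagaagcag
Oas1a: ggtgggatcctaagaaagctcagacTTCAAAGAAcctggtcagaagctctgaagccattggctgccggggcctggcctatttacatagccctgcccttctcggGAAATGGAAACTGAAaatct

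Of the 5 transcription factors Stat2 held an ISRE core, and Irf7 and Irf9 held neither element. Irf1, an activator in the interferon gamma response, and Irf8, a factor needed for macrophage and dendritic cell development, held GAS elements (1 and 2) and no ISRE core. They lie at chr11:53769899-53769957 on the plus strand and chr8:120736162-120736238 on the plus strand.
Irf1: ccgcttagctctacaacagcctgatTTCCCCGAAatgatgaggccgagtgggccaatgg
Irf8: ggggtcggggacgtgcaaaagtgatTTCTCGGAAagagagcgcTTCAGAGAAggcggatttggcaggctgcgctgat

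The ligands themselves were low in every tumor. Ifng, interferon gamma, lay between 3.90 and 4.36, and Ifnb1, interferon beta, between 4.46 and 4.93. The 3 interferon alpha genes measured (Ifna1, Ifna2 and Ifna4) stayed between 4.11 and 5.18. None of the 5 had its highest value in mad562 or mad565, the tumors in which most members were highest, and none had an SD of 0.5 or more. A transcript at this end of the scale cannot be told from background by these values. The receptor chains Ifnar1 (8.56 to 9.07), Ifngr1 (7.89 to 8.59) and Ifngr2 (7.12 to 7.66) varied little between tumors. Ifnar2, the signalling chain of the type I receptor, had its highest value, 9.62, in mad562, and Il10rb, a chain shared with the interferon lambda receptor, ranged from 6.27 to 8.64, again with its highest value in mad562.

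The members varied more between tumors than most genes on the array. An SD of at least 0.5 was reached by 19 of the 37 measured members (background, all genes, 6.79%). The median SD was 0.56 for members and 0.19 for all 18193 genes. The GTPases were the most variable, with 7 of 7 at an SD of at least 0.5 and a median SD of 0.90. Of the type I antiviral genes 10 of 25 reached it, with a median SD of 0.42. Without mad562 and mad565 only 5 members reached an SD of 0.5, so the count of 19 leaned on these tumors. No share of all genes is given for that setting. Whether members still varied more than other genes there cannot be read from this count. The mean of 18 members was at or above the median of all single-gene probe sets, as was that of 10479 of the 18193 genes.

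**Figure D1:**
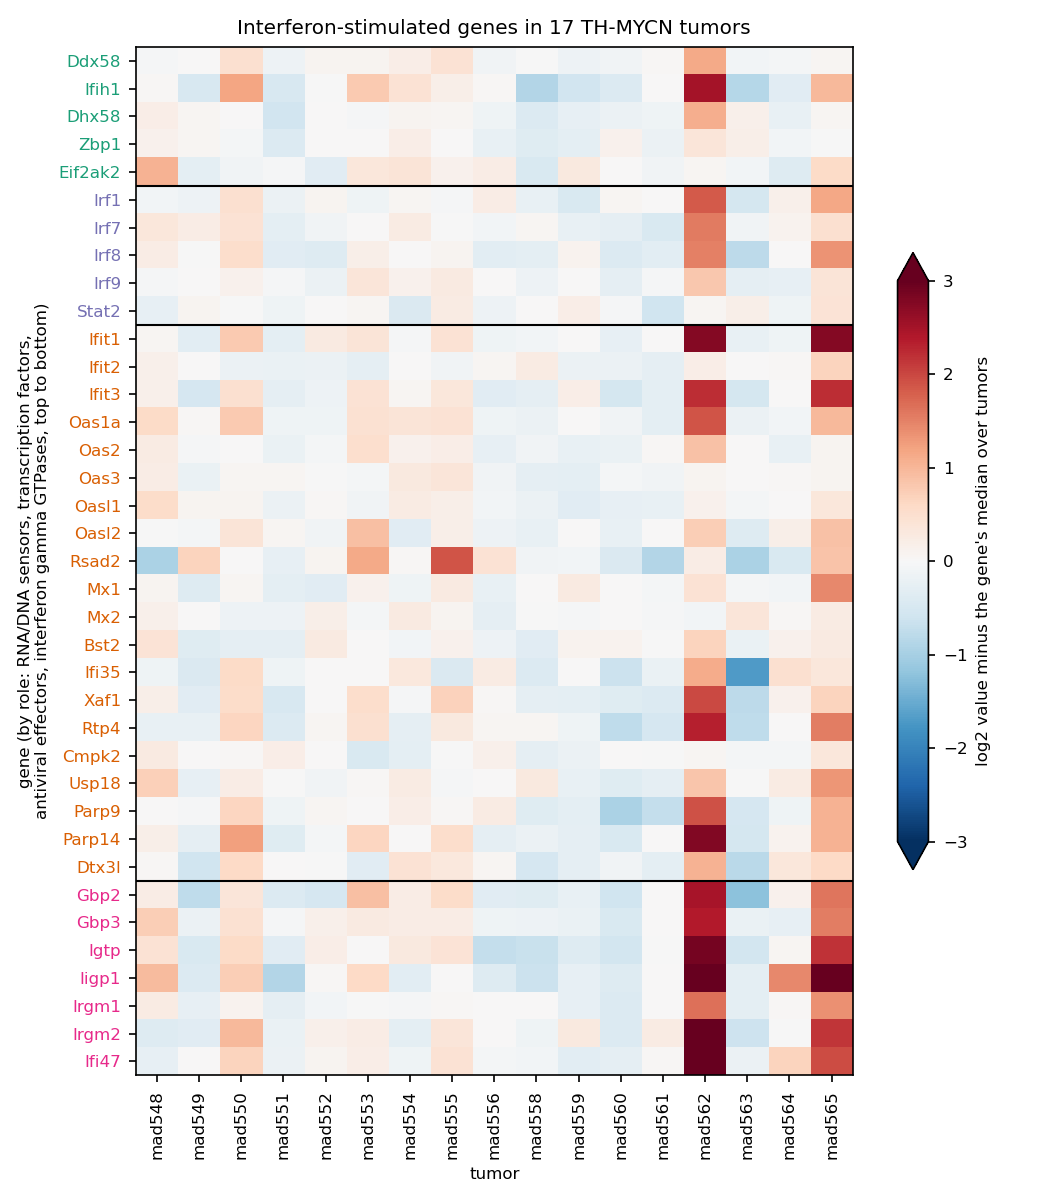
Log2 value of each of the 37 members in each of the 17 tumors (columns), shown as the difference from the gene's median over tumors, with genes (rows) grouped by role. All 7 GTPases and many effectors are high in mad562 and mad565, while Rsad2, Mx2, Oas3, Cmpk2 and Stat2 do not have their highest values in mad562.

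Most members were highest in the same tumor. The highest value was in mad562 for 25 of 37 members (background 10%) and in mad565 for 6, against 788 of 18193 genes. These 2 tumors held the 2 highest values for 18 of 37 members (background 1.52%). The 18 were 7 of 7 GTPases, 4 of 5 transcription factors, 7 of 20 effectors and 0 of 5 sensors. The lowest value was in mad563 for 13 members, 8 of them effectors, against 1417 of 18193 genes.

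The interferon gamma GTPases gave the widest ranges. Iigp1, which coats the vacuoles of intracellular parasites, had a lowest value of 4.70, a median of 5.58 and values of 9.93 in mad562 and 9.68 in mad565. The other 15 tumors lay between 4.70 and 7.02, so that both tumors were clear of the rest, and mad564 was the next. The highest value was 37.5 times the lowest on the linear scale. That lowest value lay within the range of the ligands above, which cannot be told from background, so the ratio is uncertain. The probe set of Iigp1 is of a type that can match several transcripts of a gene, and its other probe set followed it over tumors with r = 0.977.

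Igtp, also called Irgm3, was between 7.41 and 8.69 in 15 tumors (median of all 17, 8.11) and at 10.98 in mad562 and 10.28 in mad565. Irgm2, a regulator of the other family members, was between 5.76 and 7.34 in the same 15, at 9.61 in mad562 and at 8.51 in mad565. Ifi47, a further GTPase of this family, was between 6.54 and 7.53, with 9.94 and 8.82 in the 2 tumors. In all 3 genes mad562 and mad565 did not overlap with the rest. Irgm1, a regulator of vacuole targeting and autophagy, had the narrowest range of the 7, from 6.37 to 7.04 in 15 tumors, and yet stood at 8.45 in mad562 and 8.16 in mad565.

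Gbp2 and Gbp3 belong to the guanylate-binding proteins, larger GTPases that break open microbial membranes. Gbp2 had a lowest value of 5.03 in mad563, a median of 6.27, 7.87 in mad565 and 8.74 in mad562. Its next values were in mad553 (7.16) and mad555 (6.83), so that the gap to mad565 was smaller than in the other GTPases. Gbp3 went from 6.02 through a median of 6.49 to 8.03 in mad565 and 8.87 in mad562, and the other 15 tumors ended at 7.22. Gbp genes are close relatives, the Gbp2 probe set is of a type that can bind related transcripts, and part of its signal may belong to them.

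Among the antiviral effectors the Ifit genes, which bind viral RNA, behaved unlike each other. Ifit1 was at 7.63 in mad562 and 7.62 in mad565 and between 4.56 and 5.64 in the other 15 tumors. Ifit3 was at 8.42 in both and between 5.69 and 6.70 elsewhere. For these genes the 2 tumors were level, whereas the GTPases were higher in mad562. Ifit2, from the same cluster on chromosome 19, spanned only 8.57 to 9.52, with 9.04 in mad562 and 9.52 in mad565.

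The 2′-5′ oligoadenylate synthetase family, whose active enzymes start RNA decay on contact with double-stranded RNA, was also uneven. Oas1a ranged from 7.07 to 9.25 (median 7.36), with the highest values in mad562 and mad565 (8.34) and then mad550 (8.15). Oas2 ranged from 6.17 to 7.31 (mad562), followed by 6.92 in mad553, and Oas3 only from 4.71 to 5.38 (mad555). Oasl1 had its highest value, 6.68, in mad548, and Oasl2 its highest, 5.67, in mad553, just above 5.66 in mad565 and 5.50 in mad562. Only Oas1a of the 5 had its 2 highest values in mad562 and mad565.

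Rsad2 encodes viperin, an enzyme that makes a chain-terminating nucleotide against viral RNA synthesis. It had one of the wider ranges, from 8.92 in mad548 and mad563 through a median of 9.87 to 11.76 in mad555, but in another order of tumors. The next were mad553, mad565 (10.71) and mad549 (10.53), while mad562 stood at 10.09. Its probe sets followed one another over tumors (r from 0.863 to 0.947). Cmpk2, its neighbour on chromosome 12 and the kinase that supplies its substrate, ranged only from 6.89 to 7.67 and was lowest in mad553. The 2 probe sets of Cmpk2 did not follow each other (r = -0.186).

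**Figure D2:**
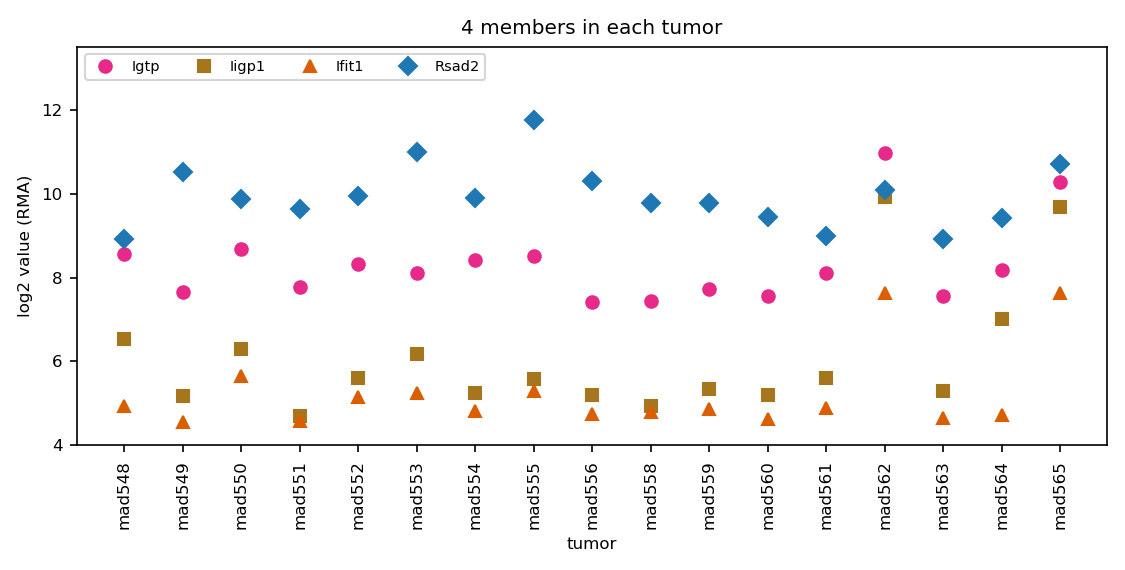
Log2 values of Igtp, Iigp1, Ifit1 and Rsad2 (y axis) in each of the 17 tumors (x axis), 1 point per tumor. Igtp, Iigp1 and Ifit1 stand clear of the rest in mad562 and mad565, whereas Rsad2 is highest in mad555 and mad553.

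The next 3 effector genes lie side by side on chromosome 16. Parp9 and Parp14 encode ADP-ribosyltransferases and Dtx3l the ubiquitin ligase that pairs with Parp9. Parp14 ranged from 6.40 to 9.70 (mad562), with mad550 (8.15) above mad565 (7.98). Parp9 ranged from 5.97 to 8.85 and Dtx3l from 6.23 to 8.08, both with the highest value in mad562, and Dtx3l was at 7.64 in both mad550 and mad565. Rtp4, an inhibitor of flavivirus replication, was at 9.80 in mad562, second in mad565 and between 6.72 and 8.11 elsewhere. The 2 probe sets of Rtp4 followed each other only in part (r = 0.403). Xaf1, a pro-apoptotic protein, reached 9.33 in mad562, then 8.06 in mad555 and 8.04 in mad565, although its 2 probe sets did not follow each other (r = -0.0079). Ifi35 had its lowest value, 7.13, in mad563 and its highest, 9.94, in mad562, with a median of 8.83.

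The remaining effectors were lower in range. Usp18, the protease that removes the ubiquitin-like protein ISG15 and damps the type I receptor, was highest in mad565 (6.28), then in mad562 (5.77) and mad548 (5.66). Mx1, an antiviral dynamin-like GTPase, was at 6.43 in mad565 against 5.42 in mad562 and 4.61 to 5.25 elsewhere. Its relative Mx2 spanned only 5.05 to 5.68, with mad562 at 5.24, below its median of 5.32. Bst2, the tether that holds budding virus on the cell surface, ranged from 5.31 to 6.33. The Mx genes thus separated mad565 from the rest only through Mx1.

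The sensors were led by Ifih1, which encodes MDA5 and binds long double-stranded RNA. It ranged from 5.92 in mad558 through a median of 6.80 to 9.28 in mad562, and mad550 (7.98) lay above mad565 (7.78). Ddx58, which encodes RIG-I, reached 7.89 in mad562 against 6.61 to 7.23 elsewhere, mad565 included (6.81). Dhx58, the LGP2 helicase, was at 6.98 in mad562 and between 5.32 and 6.09 elsewhere. These 3 were thus high in mad562 and not in mad565 by more than the spread of the others. Zbp1, a sensor of Z-form nucleic acid, spanned 5.33 to 6.10, and Eif2ak2, the kinase PKR, was highest in mad548 (7.08). The probe sets of Dhx58 followed one another weakly over tumors (r from 0.09 to 0.26), and so did those of Zbp1 (0.07). For Ddx58 r ran from 0.24 to 0.67 and for Eif2ak2 from 0.26 to 0.66.

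Of the transcription factors, Irf1 ranged from 8.07 to 10.44 (median 8.60), with mad562 and mad565 (9.77) above the other 15, which ended at 9.09. Irf8 ranged from 7.11 to 9.42, with 9.25 in mad565 and at most 8.42 elsewhere. Irf7, the amplifier of type I interferon genes, ranged from 5.22 to 7.24, and mad565 (6.16) lay next to mad550 (6.11). Irf9 ranged from 6.96 to 8.03, and mad565 (7.61) could hardly be told from mad553 (7.60). Irf9 and Stat2 are partners in the same complex, yet Stat2 spanned 5.87 to 6.87 with mad562 at 6.51, near its median of 6.46, and its 2 probe sets did not follow each other (r = -0.15).

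Type I antiviral genes and GTPases were then compared over the 17 tumors through the mean of each list, with each gene first set against its own median over tumors. The GTPase mean was 2.86 in mad562 and 2.12 in mad565 and between -0.48 (mad563) and 0.55 (mad550) in the other 15. The type I mean was 1.09 in mad562 and 0.77 in mad565 and between -0.32 and 0.32 in the same 15. The lowest and highest of the 15 were the same tumors in both lists. The GTPase mean exceeded the type I mean by 1.77 in mad562 and 1.35 in mad565, and the difference lay between -0.19 and 0.32 elsewhere.

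The 2 means went together with Pearson r = 0.963 and Spearman rho = 0.909 (17 tumors). The 2 tumors farthest from the median were mad562 and mad565, and without them r was 0.885 and rho 0.868 over 15. Single genes were less close. The median r was 0.917 over the 21 pairs of GTPases, 0.469 over the 300 pairs of type I genes and 0.709 over the 175 pairs of one with the other. Without the 2 tumors these medians were 0.588, 0.334 and 0.450. All of these are descriptions of the same arrays, with no p.

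**Figure D3:**
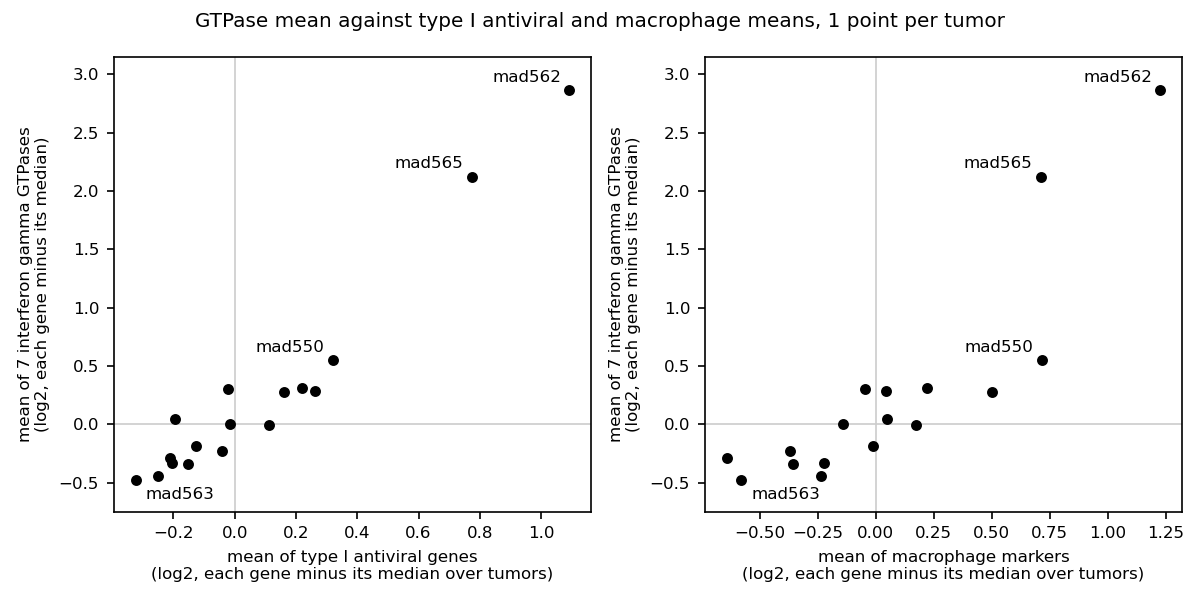
Mean of the 7 GTPases (y axis) against the mean of the 25 type I antiviral genes (left x axis) and against the mean of 9 macrophage markers (right x axis), all in log2 with each gene set against its median, 1 point per tumor. The GTPase mean of mad562 (2.86) and mad565 (2.12) stands above the other 15 tumors on both panels, while mad550 has a macrophage mean (0.72) close to that of mad565 (0.71).

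Markers of other cells moved with the members. All 9 macrophage markers were measured above the median of all single-gene probe sets, among them Csf1r, the receptor for the macrophage growth factor, from 10.40 to 12.78, and 6 of the 9 were highest in mad562. Their mean was 1.23 in mad562, 0.71 in mad565, 0.72 in mad550 and from -0.64 to 0.50 elsewhere. It followed the type I mean with r = 0.900 and the GTPase mean with r = 0.867, and with 0.810 and 0.848 without mad562 and mad565. At nearly the same macrophage mean, the GTPase mean was 0.55 in mad550 and 2.12 in mad565. This sets 1 array against 1 array, and mad550 was also high in muscle genes. The cause of the difference was not tested. In a bulk sample fewer cells of a type and less RNA per cell cannot be told apart.

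Other host cell markers differed in which of the 2 tumors they were high. The mean of 7 T and NK cell markers was 0.26 in mad562 and -0.07 in mad565, within or near the range of the others (-0.14 to 0.20), and 6 of the 7 had a mean below the median of all single-gene probe sets. The mean of 3 B cell markers was 1.49 in mad562 and 0.08 in mad565. Cd79b and Ms4a1 were highest in mad562 (8.27 and 6.02), while Cd79a did not exceed 5.43 in any tumor and was highest in mad563. This mean followed the type I mean with r = 0.755 and the GTPase mean with r = 0.746, and with 0.543 and 0.493 without the 2 tumors. The plasmacytoid dendritic cell mean was -0.07 and -0.14. Of its markers, Siglech and Ccr9 had means of 5.15 and 4.59, below the median of all single-gene probe sets. Klk1 and Pacsin1 lay above it (9.15 and 7.87) and were both highest in mad554. This mean therefore cannot tell the amount of these cells. The endothelial mean was 0.76 and 0.37 against at most 0.59 elsewhere. The endothelial mean followed the 2 lists with r = 0.695 and 0.714, and with 0.413 and 0.518 without the 2 tumors. Liver genes were high in mad562 and not in mad565 (0.04), and mad562 had the smallest 3′ to 5′ difference for Actb (1.40, others 1.46 to 1.97). The part of each of these in the members' values was not tested.

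Which members rise with the mean of other interferon targets was tested with limma. Whether that mean measures interferon activity was not tested. The predictor was the mean of 18 further interferon targets that are no members, among them the immunoproteasome genes Psmb8 and Psmb9, the peptide transporter gene Tap1, the chemokine genes Cxcl9 and Cxcl10 and the membrane proteins Ifitm1 to Ifitm3. Of 37 members 28 rose with it and 0 fell (adjusted p under 0.05 over 18175 genes, background 4.65%). The 28 were 7 of 7 GTPases, 14 of 20 effectors, 4 of 5 transcription factors and 3 of 5 sensors. The sensor calls were not stable. With the mean of all probe sets of a gene 1 of 5 sensors rose (all genes, 839 of 18175). Without mad562 0 of 5 did (all genes, 107 of 18175). The median slope was 2.03 for GTPases, 0.68 for type I genes and -0.02 for all genes, in log2 per log2 unit of the predictor. The predictor holds Gbp6 and Gbp7, relatives of Gbp2 and Gbp3, and without them the count was again 28. Of its 18 genes 10 had their 2 highest values in mad562 and mad565 (background 1.52%).

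The steepest GTPase slope was that of Iigp1, 3.38 ± 0.30 (SE), followed by Igtp, 2.23 ± 0.15, with limma adjusted p of 1.31e-06 and 6.12e-08. Irgm1 had the shallowest, 1.27 ± 0.10. Among effectors Ifit1 rose by 2.11 ± 0.19, Ifit3 by 1.88 ± 0.14 and Parp14 by 1.81 ± 0.18 per unit. Irf8 was the steepest factor at 1.38 ± 0.10 (limma adjusted p 1.55e-07), and Ifih1 the steepest sensor at 1.77 ± 0.23. GTPase slopes thus spanned 1.27 to 3.38, and 7 of the 25 type I genes lay within that span, namely Ifih1, Ifit1, Ifit3, Xaf1, Rtp4, Parp9 and Parp14.

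The 9 members that did not pass were Cmpk2, Eif2ak2, Ifit2, Mx2, Oas3, Oasl1, Rsad2, Stat2 and Zbp1. Of these 6 had a mean below the median of all single-gene probe sets, and so did 13 of the 28 that passed, so a low signal did not separate them fully. Mx2 had a slope of 0.00090 ± 0.10 (limma adjusted p 0.999), Oas3 of 0.15 ± 0.11 and Cmpk2 of 0.15 ± 0.12. Stat2 had 0.17 ± 0.14 and Zbp1 0.22 ± 0.11. Ifit2 had 0.31 ± 0.12 (limma adjusted p 0.168), while its neighbours Ifit1 and Ifit3 passed with the values above. Rsad2 had 0.63 ± 0.39 (limma adjusted p 0.519). Among those that passed, the shallowest in their roles were Ddx58 (0.58 ± 0.12), Irf9 (0.58 ± 0.09) and Bst2 (0.45 ± 0.12).

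The calls leaned on 2 tumors. Without mad562, 19 members rose with the other interferon targets (background 0.589%). Without mad562 and mad565, 7 did so, over 15 tumors (background 0.407%). The 7 were Gbp2, Igtp, Ifit3, Oas1a, Parp14, Xaf1 and Irf8, with slopes from 1.55 ± 0.30 (Oas1a) to 2.69 ± 0.41 (Gbp2). Iigp1 then had a slope of 2.42 ± 0.68 and Ifit1 of 1.15 ± 0.35, both smaller than over 17 tumors and no longer called (limma adjusted p 0.148 and 0.187). The median slope of the 37 members in these 15 tumors was 1.05, against 0.04 for all genes, and 0.96 in all 17. The choice of predictor mattered too. Of the 18 targets, Ifitm1 to Ifitm3, Isg20, Ifi27, Ube2l6, Uba7, Herc6 and Samhd1 alone gave 16 members (background 1.77%), and Tap1, Psmb8, Psmb9, Nlrc5, Ciita, Cxcl9 and Cxcl10 alone gave 27 (background 4.13%).

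**Figure D4:**
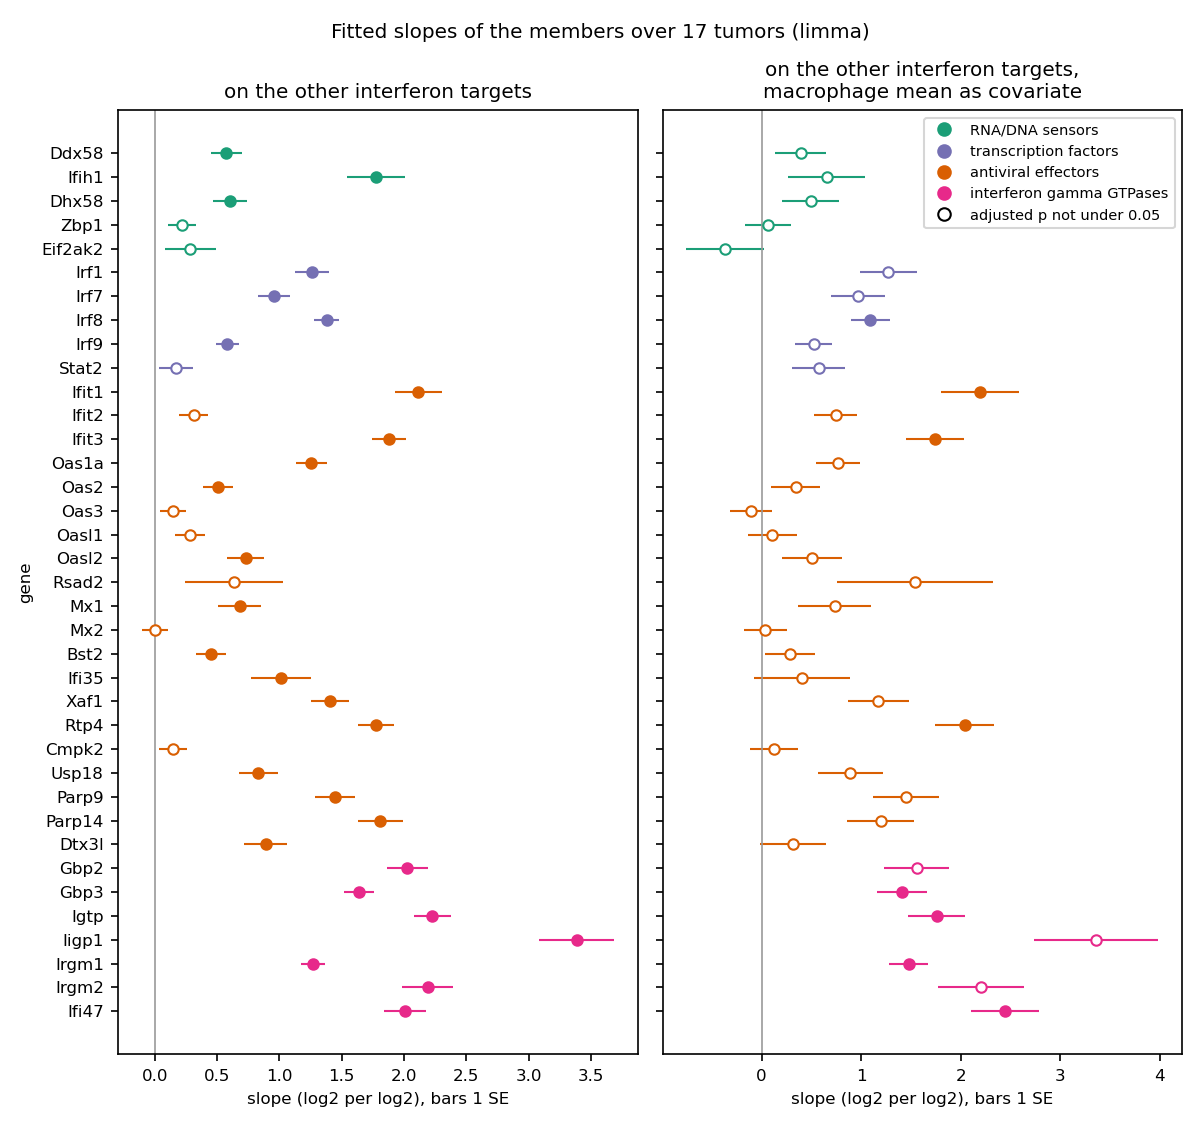
Slope of each member (y axis) in log2 per log2 unit of the other interferon targets (x axes, of different scale), alone on the left and with the macrophage mean as covariate on the right; points are estimates from limma over 17 tumors, bars 1 SE, and filled points have an adjusted p under 0.05 over all genes. On the left 28 of 37 members are filled, with Iigp1 at 3.38, and on the right 8.

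The members rose with the macrophage mean as well. In a fit on the mean of the 9 macrophage markers 27 of 37 members rose and 0 fell (adjusted p under 0.05 over 18184 genes, background 4.53%), and these 27 also rose with the other interferon targets. They were 7 of 7 GTPases and 16 of 25 type I genes, with 4 of 5 factors. The steepest were Iigp1 at 2.51 ± 0.41, Igtp at 1.76 ± 0.21 and Irgm2 at 1.62 ± 0.27. Gbp2 had 1.61 ± 0.20, Ifih1 1.57 ± 0.17 and Ifit1 1.55 ± 0.26 (limma adjusted p 0.000977). Mx1 rose with the other targets and did not pass here (0.49 ± 0.16, limma adjusted p 0.101). The difference between the 2 fits was not tested for it.

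Without mad562 the count on the macrophage mean was 11 (background 1.94%), and without mad562 and mad565 it was 8 (background 1.34%). The 8 were Gbp2, Gbp3, Igtp, Ifih1, Ifit3, Oas1a, Parp14 and Irf8. Igtp had 1.01 ± 0.16 (limma adjusted p 0.00298) and Ifih1 1.29 ± 0.22 (limma adjusted p 0.00631). Irgm1 had 0.29 ± 0.11 and Ifi47 0.34 ± 0.20 there, with limma adjusted p of 0.327 and 0.584. Irf8 is itself a gene of the macrophage lineage, and its slope was 0.73 ± 0.14.

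The predictors were themselves related (r = 0.872 over 17 tumors and 0.792 without mad562 and mad565), so both were placed in 1 model. At a given macrophage mean 8 of 37 members rose with the other interferon targets (background 0.0716%, that is 13 of 18166 genes). They were the GTPases Irgm1, Ifi47, Igtp and Gbp3, the effectors Rtp4, Ifit3 and Ifit1, and Irf8. Irgm1 had the smallest limma adjusted p of the members, 0.00563. Ifi47 had a slope of 2.44 ± 0.34 (limma adjusted p 0.00715) and Rtp4 one of 2.04 ± 0.30 (limma adjusted p 0.0105). Ifit1 had 2.20 ± 0.39 and Ifit3 1.74 ± 0.29. Iigp1, with 3.36 ± 0.63, missed the threshold (limma adjusted p 0.0547). Of the sensors Ifih1 had 0.66 ± 0.39 and Eif2ak2 -0.36 ± 0.39. The other 5 genes of the 13 were Gbp2b, a guanylate-binding protein, AW112010, Slamf8, Ms4a4b and H2-DMa, a chaperone of MHC class II loading.

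These 8 calls changed with single tumors. Without mad562, 3 were left (Irgm1, Ifit3 and Irf8, background 0.0275%). Leaving out mad548, mad558 or mad560 also gave 3, mad554, mad556 or mad561 gave 4, and mad550, mad551 or mad552 gave 5. Without mad562 and mad565 limma called 0 members (background 0.00%), and 8 had an unadjusted p under 0.05 with a slope above 0, as had 595 of 18166 genes (3.28%). The 8 were Gbp2, Ifit3, Irf8, Irgm1, Parp9, Rsad2, Rtp4 and Xaf1. The median member slope was 0.74 without the 2 tumors against 0.77 with them, and that of the GTPases 0.79 against 1.76. With the liver mean as a further covariate Irgm1 was the only member called, at 1.54 ± 0.22 (limma adjusted p 0.0218, background 0.0110%). The median slope in that fit was 0.93 for members and 1.83 for GTPases. With Tap1, Psmb8, Psmb9, Nlrc5, Ciita, Cxcl9 and Cxcl10 as predictor beside the macrophage mean, 7 members were called (background 0.0661%). A predictor without Gbp6 and Gbp7 left 3 members there. The predictor of Ifitm1 to Ifitm3, Isg20, Ifi27, Ube2l6, Uba7, Herc6 and Samhd1 left 0.

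Other genes of the pathway followed the other interferon targets in part. Of 5 ligands 0 passed in either direction with limma, and 0 had an unadjusted p under 0.05. Of 6 receptor chains 2 rose, Ifnar2 (0.56 ± 0.11) and Il10rb (1.03 ± 0.16). The JAK kinases Jak1, Jak2 and Tyk2 gave 0 of 3, with Jak2 at 0.31 ± 0.09 (limma adjusted p 0.0557). Of 4 further factors only Irf2 rose (0.57 ± 0.16, limma adjusted p 0.0480). Socs3 (1.53 ± 0.24) and the phosphatase gene Ptpn6 (1.46 ± 0.27) were the 2 of 4 inhibitors that rose, while Socs1, the main feedback inhibitor of interferon gamma signalling, did not exceed 5.40 in any tumor. Of 6 adaptors 3 rose, the DNA sensor gene Cgas (0.72 ± 0.16), its partner Sting1 (0.49 ± 0.10) and Myd88 (0.97 ± 0.21).

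None of these pathway genes passed beside the macrophage mean, and none passed without mad562 and mad565, where Il10rb came closest (1.60 ± 0.36, limma adjusted p 0.0661). Socs3 followed the macrophage mean with 1.47 ± 0.12 (limma adjusted p 3.17e-06), and its slope on the other targets beside that mean was 0.08 ± 0.30. The further interferon targets were described on the macrophage mean too, where 9 of 18 rose, among them Gbp7, Nlrc5, Tap1, Psmb8, Psmb9 and Cxcl9, while Isg20 (-0.04 ± 0.32) and Ube2l6 (-0.04 ± 0.24) did not pass. Isg20 and Ube2l6 were both highest in mad555, the tumor in which Rsad2 and Oas3 were highest.

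The shares of promoter elements lay close together in members that passed and members that did not, over few genes. An ISRE core was present in 11 of 20 members that rose with the other interferon targets and had a promoter (55%), and in 4 of 7 that did not pass (57.1%). A GAS was present in 7 of the 20 (35%) and 2 of the 7 (28.6%). Rsad2, Oas3, Stat2 and Eif2ak2 held an ISRE core and did not pass, whereas Ifi47, Xaf1, Irf7, Irf9, Dtx3l and Oasl2 passed with neither element in their windows. No test was made of these shares.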

How the data were processed

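RNA of 17 TH-MYCN tumors was hybridised to Affymetrix mouse expression arrays, 1 array per tumor. The authors deposited log2 values of 45101 probe sets, which per the labels were made with RMA in Partek 6.4. RMA compresses differences at the low end. The study's methods name MAS5 instead, and the deposited log2 values were used as they are.

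Of the probe sets 34945 carried 1 gene symbol, 932 several and 9160 none, beside 64 controls. Only the first were used, with 1 per gene, that of highest mean, which left 18193 genes. Members and lists were chosen with earlier results of these data known. Each gene was fitted over tumors on a predictor with limma 3.58.1 in R 4.3.3 (lmFit, eBayes, two-sided, Benjamini-Hochberg over all genes tested, threshold 0.05), and the genes of the predictor were left out. Other steps ran in Python 3.11.15 with pandas 2.3.3. The fits were tested on simulated data. The number of arrays limits the precision. Each p-value sets a slope against the residual spread over tumors, which holds both differences between tumors and array error.

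The single gene planned as predictor is not analysed here, and the mean of 18 further interferon targets took its place. This choice, and the alternatives to it, were made after the members' ranges had been seen. All measured members are named by role, with slopes for the steepest and shallowest of each role. Alternatives were the mean of all probe sets of a gene, probe sets specific to 1 transcript, centred arrays, a filter on low means, Csf1r as macrophage predictor, and leaving out each tumor, mad562 with mad565, or the 3 tumors high in muscle genes.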

Additional observations from a re-analysis of the deposited data

How the results depend on the processing

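Of the values recomputed under other settings 120 stayed within 1.5 times the main count or within the error of r, and 29 did not. Many of these settings left out a single tumor. The sign of r did not change, and a count could not reverse. With only genes whose mean reached the median, 18 members were left. Of these 15 rose with the other interferon targets (all genes, 460 of 10471) and 15 with the macrophage mean (all genes, 539 of 10470). Beside the macrophage mean 4 rose with the other targets (all genes, 4 of 10462). Of the 18, 15 were highest in mad562, and r between the 2 list means was 0.917. Without mad562 the counts were 19, 11 and 3, 12 members had an SD of at least 0.5, and r was 0.929. Without mad562 and mad565 they were 7, 8, 0 and 5, and r was 0.885. Spearman rho was 0.909, and with the median absolute deviation as the spread 7 members reached 0.5. For the counts of spread and of highest values in these settings no share of all genes is given. Beside the macrophage mean, the liver mean as a further covariate left 1 member, a predictor without Gbp6 and Gbp7 left 3, and the predictor of Ifitm-type genes left 0. That predictor alone gave 16. The cause of these shifts was not tested.

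Leaving out each tumor in turn gave 19 to 28 members on the other interferon targets, 11 to 27 on the macrophage mean, 3 to 10 on the former beside the latter, 12 to 19 with an SD of at least 0.5, 25 to 28 highest in mad562 (with any other tumor left out), and r from 0.929 to 0.971. Probe sets specific to 1 transcript left 30 members, of which 21 rose with the other targets (all genes, 605 of 16576). No paired analysis was possible because 1 array was made per tumor and there is no second condition. Low signal limits the ligands and the members of lowest mean, Oasl2, Oas3, Mx1, Usp18, Ifit1 and Mx2.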
